A study of Caenorhabditis elegans with 40 samples.

Results

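Cuticlins are insoluble proteins of the nematode cuticle. The genes described here are the 35 rows of the deposited table whose symbol starts with cut- or cutl-, out of 20956 rows. They comprise 6 cut- genes and 29 cutl- genes. Membership was set by name alone, but the family was chosen with earlier results of these data known. RNA sequencing was done on whole Caenorhabditis elegans collected on day 1 of adulthood, in 40 libraries. The wild type strain was N2. The mutants were eat-2(ad1116) in strain DA1116, a slow feeder used to model restricted diet, and raga-1(ok386) in strain VC222, which lacks a Rag GTPase of nutrient signalling. They also included clk-1(qm30) in strain MQ130, affected in ubiquinone synthesis, and age-1(hx546) in strain TJ1052, affected in the PI3 kinase of insulin signalling. Each genotype was grown from hatching on an empty vector or on RNA interference (RNAi) against repo-1, a spliceosome component, which makes 10 groups of 4 libraries. The series concerns how splicing factors active early in life bear on interventions that lengthen life.

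The cuticle is an extracellular coat of collagens and cuticlins that the epidermis secretes anew before hatching and at each molt. Most cuticlins carry a zona pellucida (ZP) domain, by which such proteins assemble into fibrous sheets on the outer face of epithelia, and seam cells use several of them to shape the ridges called alae. Genes of new cuticle are switched on in pulses, in the late embryo and before each molt, so their transcripts are usually low in adults that have stopped molting. A whole adult hermaphrodite also holds embryos, and in whole animals fewer cells of a type and less RNA per cell cannot be told apart.

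The deposited values are read counts divided by a size factor per library, called normalized counts below. Recovered depth ranged from 7.43 to 40.8 M reads per library. The mean normalized count of repo-1 was 649.1 to 839 in the empty vector groups and 265.3 to 373 in the RNAi groups. Raga-1 on empty vector replicate 1 had the lowest mean correlation with its own group, 0.957. The library names carry one code in batches 1 and 2 (20 libraries) and another in 19 libraries of batches 3 and 4, and the labels do not say what it marks. The remaining library, raga-1 on RNAi replicate 3, carries a code of its own. No label states that replicates came from separate cultures. The p-values therefore reflect only how far these libraries differ from each other, and that may be technical.

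Of the 35 cuticlin genes, 22 had a mean of at least 10 normalized counts over the 40 libraries and were tested, and 13 did not. Among the tested genes cut-5, cutl-13, cutl-28 and cutl-29 had a mean under 10 outside eat-2 and clk-1 on empty vector, at 3.72, 4.27, 9.94 and 7.95, so these 4 passed only through the groups where they were high. The 13 genes not tested were cut-1, cutl-1, cutl-4, cutl-5, cutl-6, cutl-7, cutl-8, cutl-11, cutl-14, cutl-17, cutl-19, cutl-22 and cutl-27, with means of 0.643 to 9.81. The 35 genes lay on all 6 chromosomes, with 7 on chromosome I and 9 on chromosome II, and the closest neighbours, cutl-1 and cut-2 on chromosome V, were 8835 bp apart. In the Ensembl annotation of WBcel235, cutl-20 shared 221 bp of exon on the same strand with shc-1, so reads from that stretch could belong to either gene. Several others overlapped a gene on the opposite strand, such as cutl-18 with T03F7.7 over 84 bp and cutl-13 with W04C9.9 over 68 bp. Whether the counting used strand is not given in the sources used here, and these values are uncertain to that extent.

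The summed normalized count of the 35 genes was highest in eat-2 on empty vector and next highest in clk-1 on empty vector. It lay between 3348 and 3641 in the 4 eat-2 libraries and between 1864 and 2239 in the 4 clk-1 libraries, against 388 to 533 in wild type. The raga-1 libraries, at 413 to 483, and the age-1 libraries, at 368 to 500, overlapped those of wild type. Under repo-1 RNAi the sum was 653 to 857 in wild type, 752 to 874 in raga-1 and 447 to 620 in age-1. It was 1075 to 1427 in eat-2 and 723 to 1095 in clk-1. All 4 RNAi libraries thus lay above their empty vector libraries in wild type and raga-1 and below them in eat-2 and clk-1, while in age-1 the RNAi and empty vector libraries overlapped. The genes cut-2 and cut-3 made up a mean of 55.8% of the sum in eat-2 and 39.6% in clk-1 on empty vector, against 16.9% in wild type. In clk-1 under RNAi their share was 4.64%. Without them the sum was still 1491 to 1641 in eat-2 and 1211 to 1281 in clk-1, against 344.5 to 430.3 in wild type.

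**Figure D1:**
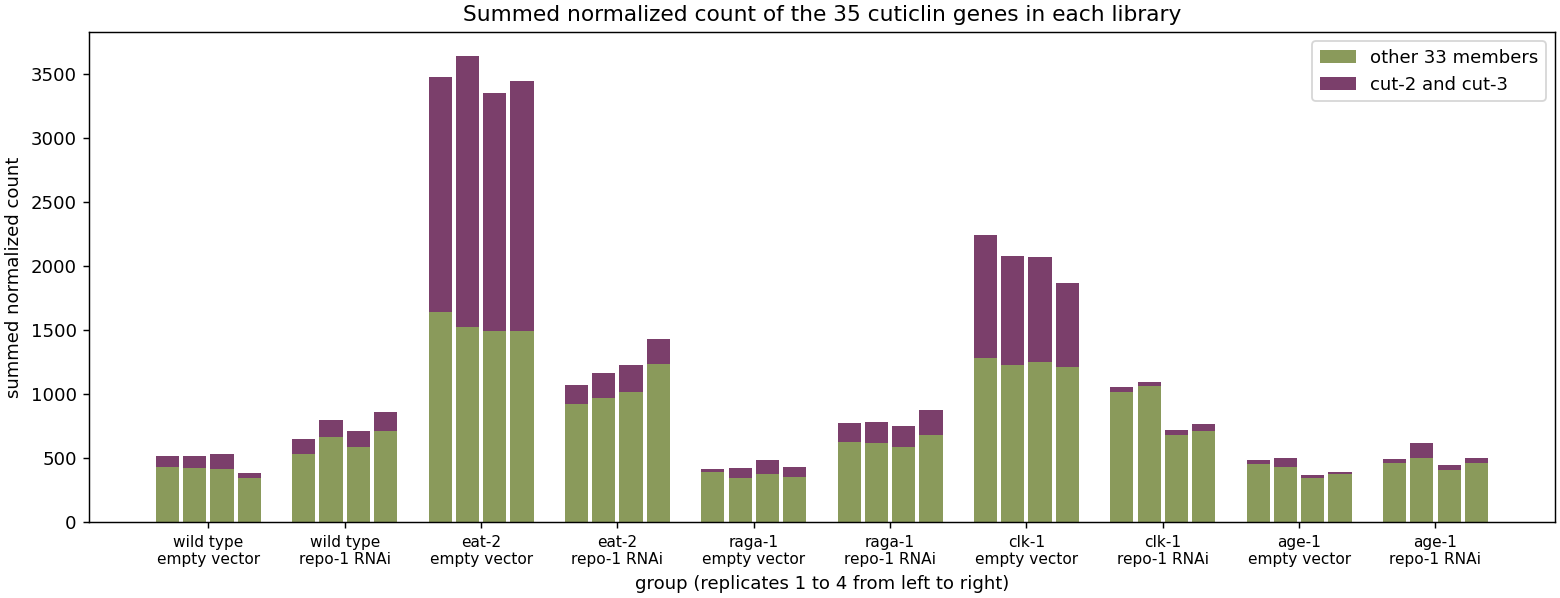
Each bar is 1 of the 40 libraries, with the replicates of a group side by side. The height is the summed normalized count of the 35 cuticlin genes, divided into cut-2 and cut-3 and the other genes. The eat-2 bars on empty vector, at 3348 to 3641, stand above those of every other group, and those of clk-1 on empty vector, at 1864 to 2239, come next.

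Levels of different genes were compared per kilobase of exon. In wild type on empty vector cut-2 had the highest mean, 62.1 normalized counts per kilobase, followed by cutl-26 at 43.5 and cut-3 at 21.4. In eat-2 on empty vector the order was cut-2 at 1240, cut-3 at 624 and cutl-16 at 102. In clk-1 on empty vector it was cut-2 at 443, cut-3 at 323 and cutl-10 at 163, and under RNAi cutl-10 led at 116, ahead of cutl-16 at 103. On the age-1 background cutl-26 led on empty vector with 42.8 per kilobase. Of the 35 genes, 19 had their highest group mean in eat-2 on empty vector and 4 in clk-1 on empty vector. Counted over tested genes alone, eat-2 on empty vector held the highest mean for 50% of the cuticlin genes and for 12.5% of all 12327 genes tested. That 50% includes cut-5, cutl-13 and cutl-28, which passed the filter only through eat-2 and clk-1 on empty vector, so the filter favoured this result.

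cut-3 encodes a ZP-domain cuticlin needed for the alae and slender shape of the first larva. It lies on chromosome II at 8445169 to 8446831 on the reverse strand of WBcel235. On empty vector its normalized counts in replicates 1 to 4 were 34.4, 28.7, 29.65 and 16.2 in wild type and 765, 872, 717.5 and 817 in eat-2. The clk-1 libraries held 496, 420, 408 and 319. The eat-2 and clk-1 libraries did not overlap those of wild type or each other. With the same 4 replicates, raga-1 held 2.67, 21.4, 2.75 and 0.7, and age-1 held 5.2, 19.35, 8.065 and 3.87. Replicate 2 stood above the other replicates in both, and in both it overlapped wild type. The log2 fold difference from wild type, on the scale of log2(normalized count + 1), which understates changes of low genes, was 4.86 ± 0.549 in eat-2 (standard error, limma adjusted p = 2.85e-09) and 3.90 ± 0.549 in clk-1 (adjusted p = 1.79e-07). In raga-1 cut-3 was lower, at -2.51 ± 0.549 (adjusted p = 0.0003), and in age-1 its -1.66 ± 0.549 did not pass (adjusted p = 0.0532). The raga-1 libraries held only 1, 16, 2 and 1 reads of cut-3, so the size of that difference is uncertain. With the batch as a replicate block, cut-3 was called lower in age-1.

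Under repo-1 RNAi cut-3 held 36.8, 67.2, 34.8 and 71.4 in wild type. The eat-2 libraries held 45.4, 41.6, 47.4 and 40.8, and the clk-1 libraries 11.1, 6.18, 0.774 and 7.37. In eat-2 and in clk-1 all 4 RNAi libraries lay far below all 4 on empty vector, with means at 5.52% and 1.55% of the empty vector means. The raga-1 libraries on RNAi held 3.32, 1.94, 2.53 and 0.9, and those of age-1 held 4.98, 31.75, 6.66 and 8.93. On the log2 scale cut-3 fell by 6.09 ± 0.549 in clk-1 and by 4.15 ± 0.549 in eat-2 (limma adjusted p = 3.68e-11 and 2.69e-07). Its differences of 0.35 in age-1, -0.66 in raga-1 and 0.90 in wild type missed the threshold (adjusted p = 0.699, 0.285 and 0.249).

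cut-2 encodes an alanine-rich cuticlin without a ZP domain, which is cross-linked through tyrosines. It lies on chromosome V at 13414949 to 13416064 on the forward strand. On empty vector it read 50.8, 67.5, 84.6 and 27.5 in wild type and 1066, 1245, 1138 and 1137 in eat-2. The clk-1 libraries held 463, 433, 413 and 334. The 3 groups did not overlap. raga-1 read 21.3, 50.9, 104.5 and 73.5, on both sides of wild type, and age-1 read 24.7, 51.6, 16.1 and 13.2. Compared with wild type the log2 fold difference was 4.40 ± 0.368 in eat-2, 2.92 ± 0.368 in clk-1 and -1.18 ± 0.368 in age-1 (limma adjusted p = 2.96e-12, 2.03e-08 and 0.0377), and 0.02 in raga-1 (adjusted p = 0.973). The call in age-1 was lost when batch 1, 3 or 4 was left out (adjusted p = 0.0867, 0.29 and 0.102) and without the filter on low values (adjusted p = 0.0598).

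On repo-1 RNAi cut-2 moved in opposite directions in different mutants. It read 104, 157, 158 and 151 in eat-2 and 21.2, 28.4, 39.5 and 44.2 in clk-1, all below the empty vector libraries. In raga-1 it read 145, 163, 158 and 189, all above them. Wild type held 82.1, 64.2, 91.5 and 75.6 and age-1 held 27.4, 86.4, 30.45 and 29.8, both overlapping their empty vector libraries. The log2 fold change was -3.02 ± 0.368 in eat-2, -3.63 ± 0.368 in clk-1 and 1.58 ± 0.368 in raga-1 (limma adjusted p = 6.09e-08, 5.37e-10 and 0.0003). The 0.72 of age-1 and the 0.54 of wild type did not pass (adjusted p = 0.166 and 0.311). Ordered by group mean, cut-2 went from eat-2 on empty vector through clk-1 on empty vector to raga-1 and eat-2 on RNAi, where the last pair overlapped. eat-2 on RNAi stood clear of wild type on RNAi, the next group, and from there down each group overlapped its neighbour.

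cut-6 and cut-5 encode ZP-domain cuticlins with roles in dauer larvae, cut-6 in body shape and cut-5 in alae. cut-6 read 11.2, 8.43, 9.88 and 3.745 in wild type on empty vector, 144.7, 115.9, 120.5 and 112.3 in eat-2, and 57, 52.1, 63.6 and 41 in clk-1. On RNAi it read 12.8, 9.5, 6.77 and 20.4 in eat-2 and 13.1, 7.42, 5.42 and 12.3 in clk-1, without overlap with empty vector in either mutant. The log2 fold difference from wild type was 3.82 ± 0.452 in eat-2 and 2.61 ± 0.452 in clk-1, and the RNAi change was -3.31 ± 0.452 and -2.42 ± 0.452 (limma adjusted p = 7.55e-09, 6.49e-06, 4.57e-07 and 3.74e-05). In raga-1 on empty vector cut-6 read 50.7, 13.4, 15.1 and 11.2. It was called higher there than in wild type, by 1.16 ± 0.452 (adjusted p = 0.0351), and this call was lost without its replicate 1 (adjusted p = 0.214), without batch 1, 2 or 4, without the filter on low values and after quantile normalization. On RNAi raga-1 read 24.3, 7.76, 9.5 and 21.6, and the difference of -0.37 did not pass (adjusted p = 0.468). In the remaining groups cut-6 read 6.6, 9.88, 16.5 and 18.5 in wild type on RNAi, 15.6, 20.3, 5.87 and 20.9 in age-1 on empty vector and 4.98, 17.8, 7.61 and 18.9 in age-1 on RNAi, and no call was made between them.

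cut-5 (chromosome X, 10333858 to 10338200, reverse strand) was low outside 2 groups. It read 44.7, 41.9, 60.2 and 39.7 in eat-2 and 39.5, 32.3, 36.95 and 21.8 in clk-1 on empty vector, and every other library lay at or below 11.3. Wild type on empty vector read 1.72, 5.06, 5.49 and 1.25. On RNAi eat-2 read 5.14, 9.95, 11.3 and 11 and clk-1 read 4.03, 11.1, 5.42 and 3.685. No RNAi library of these mutants reached its empty vector range. The log2 fold difference from wild type was 3.58 ± 0.59 in eat-2 and 3.06 ± 0.59 in clk-1, and the RNAi change was -2.24 ± 0.59 and -2.33 ± 0.59 (limma adjusted p = 3.48e-06, 3.42e-05, 0.00297 and 0.00145). In raga-1 it read 0, 4.02, 0 and 2.1 on empty vector and 4.42, 0, 3.17 and 6.3 on RNAi. In age-1 it read 0, 2.765, 2.2 and 2.32 and then 0, 3.81, 0 and 1.985, and in wild type on RNAi 4.72, 1.98, 0.915 and 3.36. None of these changes passed.

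The remaining cut- genes were cut-4 and cut-1. cut-4 was not called in eat-2 against wild type (-0.07) or under RNAi in eat-2 (0.19). In clk-1 on empty vector its mean was 9.32 ± 3.84 (SD, n = 4), below the 22.1 ± 4 of wild type (log2 fold difference -1.22, limma adjusted p = 0.00731), and RNAi raised it to 25.1 ± 8.02 (1.37, adjusted p = 0.00411). RNAi also raised it in raga-1, from 24.6 ± 13.3 to 54.3 ± 6.84 (1.37, adjusted p = 0.00227), a call that quantile normalization removed. Both clk-1 calls were lost without batch 4 (adjusted p = 0.107 for the mutant and 0.116 for RNAi). cut-1, needed for dauer alae, had a mean of 1.77 and did not exceed 6.2 in any library.

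**Figure D2:**
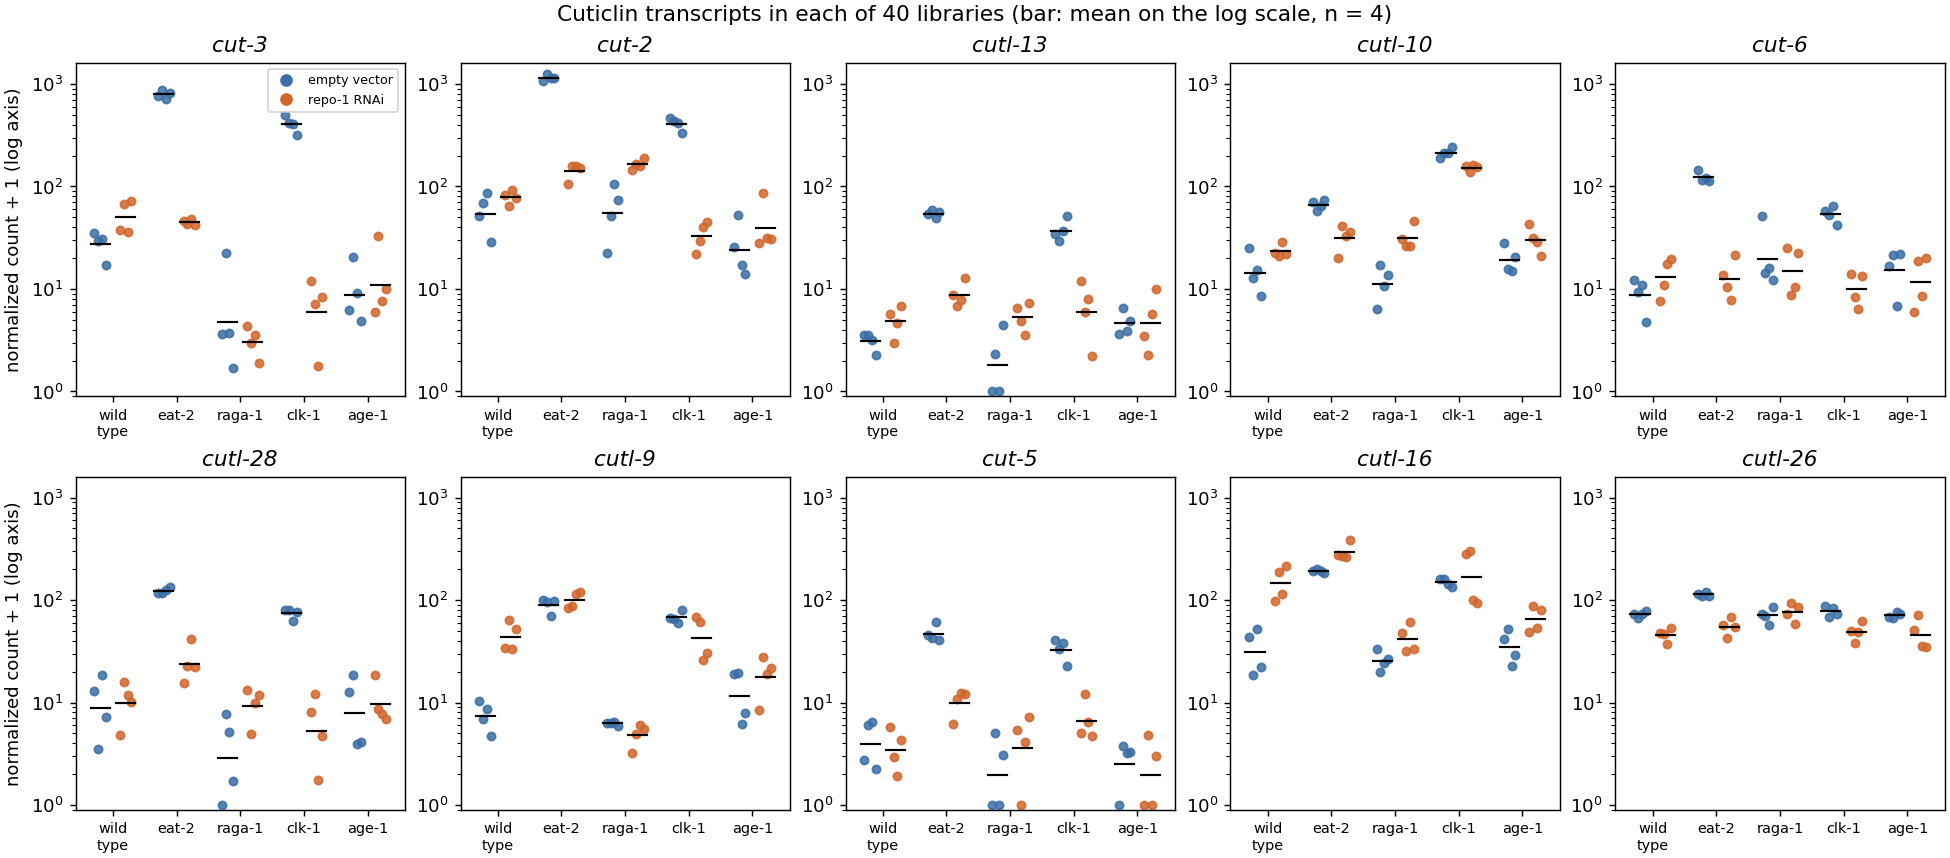
Each point is the normalized count plus 1 of 1 library on a log axis, for 10 cuticlin genes, by genotype, with blue for empty vector and orange for repo-1 RNAi. The bar is the mean on the log scale of 4 libraries. For cut-3 and cut-2 the empty vector points of eat-2 and clk-1 stand clear of the RNAi points, and for cutl-9 and cutl-16 the wild type RNAi points stand above empty vector.

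Named for their likeness to the cuticlins, the cutl- genes featured here are those with the largest called changes or the highest mean. cutl-13 read 2.58, 2.53, 2.2 and 1.25 in wild type, 52.6, 57.75, 48 and 55.2 in eat-2 and 33.5, 28.1, 36.1 and 50 in clk-1, all on empty vector. On RNAi eat-2 read 7.71, 5.88, 6.77 and 11.8 and clk-1 read 11.1, 4.94, 6.97 and 1.23. The groups on empty vector and on RNAi did not overlap in either mutant. The log2 fold difference from wild type was 4.14 ± 0.463 in eat-2 and 3.59 ± 0.463 in clk-1, and the RNAi change was -2.63 ± 0.463 in each (limma adjusted p = 2.31e-09, 3.17e-08, 2.82e-05 and 1.55e-05). raga-1 read 0, 1.34, 0 and 3.5 on empty vector and 5.53, 3.88, 2.53 and 6.3 on RNAi, a rise of 1.57 ± 0.463 (adjusted p = 0.00311) between low counts that edgeR did not call (adjusted p = 0.0787). Wild type on RNAi read 4.72, 1.98, 3.66 and 5.88, and age-1 read 2.6, 5.53, 2.93 and 3.87 on empty vector and 2.49, 1.27, 4.76 and 8.93 on RNAi, with no call.

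cutl-28 (chromosome IV, 684497 to 688340, forward strand) lies 10359 bp from cutl-26. It read 12.05, 2.53, 17.6 and 6.24 in wild type, 116, 116, 126 and 132 in eat-2 and 79.8, 79.2, 61.9 and 75.6 in clk-1 on empty vector. On RNAi eat-2 read 14.6, 21.7, 40.6 and 21.2 and clk-1 read 7.06, 11.1, 0.774 and 3.685. Both mutants stood clear of wild type on empty vector and of their own RNAi libraries. The log2 fold difference from wild type was 3.80 ± 0.583 in eat-2 and 3.07 ± 0.583 in clk-1, and the RNAi change was -2.37 ± 0.583 and -3.81 ± 0.583 (limma adjusted p = 1.05e-06, 2.73e-05, 0.0016 and 1.73e-06). raga-1 read 0, 6.69, 4.125 and 0.7 on empty vector and 12.2, 3.88, 8.87 and 10.8 on RNAi, which was called higher by 1.70 ± 0.583 (adjusted p = 0.01) and lost the call after quantile normalization and without batch 1 or batch 4. Wild type on RNAi read 3.77, 14.8, 11 and 9.24, and age-1 read 11.7, 17.5, 2.93 and 3.1 and then 17.4, 7.62, 6.66 and 5.955.

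The neighbouring gene cutl-26 showed smaller log2 differences. On empty vector it read 71.4, 65.8, 71.4 and 77.4 in wild type, 113.1, 109.8, 119.7 and 108.5 in eat-2, 87.45, 66.7, 82.5 and 71.7 in clk-1, 72, 68.3, 56.4 and 85.4 in raga-1 and 67.6, 66.4, 75.5 and 72 in age-1. Only eat-2 stood apart, by 0.65 ± 0.184 (limma adjusted p = 0.00281, and not called after quantile normalization, adjusted p = 0.416). On RNAi it read 47.2, 45.4, 36.6 and 52.9 in wild type, 55.7, 42.1, 67.7 and 53.4 in eat-2, 48.4, 37.1, 48 and 61.4 in clk-1, 71.9, 93.1, 57.6 and 85.5 in raga-1 and 49.8, 71.1, 34.25 and 33.7 in age-1. It was the only cuticlin gene called lower under RNAi in wild type (-0.65 ± 0.184, adjusted p = 0.00904) and also fell in eat-2 (-1.05), clk-1 (-0.67) and age-1 (-0.63; adjusted p = 2.61e-05, 0.00323 and 0.0129), while its 0.12 in raga-1 did not pass (adjusted p = 0.572). The wild type call was lost without batch 1 or 3 (adjusted p = 0.0566 and 0.0666), and the age-1 call without batch 1, 3 or 4 (adjusted p = 0.0504, 0.141 and 0.125).

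cutl-10 was the 1 featured gene with a higher mean in clk-1 than in eat-2, and these groups did not overlap. On empty vector it read 24.1, 11.8, 14.3 and 7.49 in wild type, 69.7, 56.9, 63.3 and 73.6 in eat-2, and 189.3, 213.5, 212.2 and 239.6 in clk-1. On RNAi clk-1 read 156.2, 137.2, 160.3 and 153.5, still above every library of the other 4 genotypes. The log2 fold difference from wild type was 3.90 ± 0.28 in clk-1 and 2.22 ± 0.28 in eat-2 (limma adjusted p = 3.09e-14 and 2.75e-08). Under RNAi cutl-10 fell in eat-2, to 18.8, 40.25, 31.6 and 35.3 (-1.09 ± 0.28, adjusted p = 0.00244), and rose in raga-1, from 5.335, 16.1, 9.63 and 12.6 to 29.85, 25.2, 25.3 and 45 (1.49 ± 0.28, adjusted p = 1.72e-05). The -0.49 of clk-1 did not pass (adjusted p = 0.155), although its 4 RNAi libraries lay below those on empty vector. Wild type on RNAi read 21.7, 19.8, 27.4 and 21, and age-1 read 27.3, 14.75, 13.9 and 19.35 and then 42.4, 30.5, 27.6 and 19.85, without a call.

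cutl-9 and cutl-16 were raised by RNAi in wild type and were not called under it in eat-2. cutl-9 read 9.47, 5.9, 7.69 and 3.75 on empty vector and 33, 63.2, 32 and 51.2 on RNAi in wild type. In eat-2 it read 99.95, 93.95, 69.4 and 96.85 on empty vector and 82.2, 86.8, 113 and 118 on RNAi. Wild type on RNAi thus lay between wild type and eat-2 on empty vector, without overlap with either. The RNAi change was 2.58 ± 0.352 in wild type (limma adjusted p = 1.18e-06), 0.15 in eat-2 and -0.67 in clk-1 (adjusted p = 0.775 and 0.121), and the difference from wild type on empty vector was 3.61 ± 0.352 in eat-2 and 3.20 ± 0.352 in clk-1 (adjusted p = 1.08e-10 and 1.08e-09). In clk-1 it read 66.2, 64.6, 59.3 and 78.15 on empty vector and 67.5, 60.6, 24.8 and 29.5 on RNAi, where batches 1 and 2 overlapped empty vector and batches 3 and 4 did not. raga-1 read 5.335, 5.355, 5.5 and 4.9 and then 2.21, 3.88, 5.07 and 4.5, and age-1 read 18.2, 18.4, 5.13 and 6.97 and then 7.48, 26.7, 18.1 and 20.8, with no call.

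For cutl-16 wild type read 43, 17.7, 51.6 and 21.2 on empty vector and 97.15, 187, 112.5 and 215 on RNAi, a rise of 2.22 ± 0.333 (limma adjusted p = 5.9e-06). In eat-2 it read 189, 198, 190 and 184 on empty vector and 276, 269, 259.5 and 383 on RNAi. These groups did not overlap, but the change of 0.62 did not pass (adjusted p = 0.144). In clk-1 it read 160, 159, 143 and 133 on empty vector and 279, 301.5, 98.35 and 92.1 on RNAi, above the empty vector range in batches 1 and 2 and below it in batches 3 and 4 (0.16, adjusted p = 0.719). On empty vector it was higher than in wild type by 2.61 ± 0.333 in eat-2 and 2.25 ± 0.333 in clk-1 (adjusted p = 3.49e-08 and 4.48e-07). age-1 read 40.3, 50.7, 22 and 27.9 and then 47.35, 86.4, 52.3 and 79.4, called at 0.92 ± 0.333 (adjusted p = 0.0458) but not by edgeR (adjusted p = 0.0559) or without batch 2, 3 or 4. raga-1 read 32, 18.7, 23.4 and 25.9 and then 46.4, 31, 59.5 and 32.4 (0.71, adjusted p = 0.0554).

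Counted over the 22 tested genes, those higher in eat-2 than in wild type on empty vector numbered 20 and those lower 0, where 27.2% of all genes tested were higher, 29.8% lower and 57% called. The 2 exceptions were cut-4 and cutl-18, and no tested gene was lower at an unadjusted p under 0.05 or by edgeR either. The median log2 fold difference was 2.17, against 0.00179 over all genes tested. Beyond those described above, the largest rises were in cutl-2 (3.31), cutl-23 (2.29), cutl-29 (2.12) and cutl-24 (2.02; limma adjusted p = 2.9e-10, 1.55e-06, 3.06e-05 and 9.72e-11). Of the 13 untested genes, a fit without the filter on low values called cutl-4, cutl-6, cutl-8, cutl-11, cutl-14, cutl-17 and cutl-27 higher, for a total of 27 of 35. The share of all genes called in that fit was not counted, and the shares above do not apply to it. The 4 genes that passed the filter only through high groups had to differ somewhere, so neither count weighs the tested genes as a sample of all 35.

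For clk-1 against wild type 18 of 22 were higher and 2 lower, where 27.8% of all genes tested were higher, 30.4% lower and 58.3% called. The genes lower were cut-4 and cutl-18 (-1.63, limma adjusted p = 9.65e-05), and cutl-3 and cutl-26 were not called. The median was 2.12, against -0.0075 over all genes. cutl-2 (2.89), cutl-29 (2.29), cutl-12 (1.98) and cutl-20 (1.93) followed the featured genes (adjusted p = 3.74e-09, 8.11e-06, 0.000169 and 6.64e-08). This comparison shares its wild type libraries with that of eat-2 and with those of raga-1 and age-1, so the 4 sets of values are not independent. The empty vector libraries of each mutant also enter its RNAi comparison, with the opposite sign. A rise in a mutant and a fall under RNAi in it, here and in the gene lists below, are therefore not independent either.

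In raga-1 and age-1 fewer cuticlin genes, and fewer of all genes tested, were called than in eat-2 and clk-1. The raga-1 counts were near the shares of all genes, while the age-1 total lay above its share but was not stable. In raga-1 4 cuticlin genes were higher and 6 lower, where 19.7% of all genes were higher, 26.4% lower and 46.1% called, and the median was -0.29 against -0.02. Those higher were cut-6, cutl-3, cutl-12 and cutl-24, and those lower were cut-3, cutl-2, cutl-18, cutl-25, cutl-28 and cutl-29. cutl-24 rose by 1.51 (limma adjusted p = 9.37e-08), and cutl-18 and cutl-25 were lower, at -1.64 and -1.26 (adjusted p = 0.000153 and 0.000448). Without raga-1 replicate 1 on empty vector the total fell from 10 to 6, with 2 higher and 4 lower, and after quantile normalization 2 were higher and 5 lower. In age-1 2 genes, cutl-3 (0.98) and cutl-24 (0.92), were higher and 2, cut-2 and cutl-18 (-1.21), were lower (adjusted p = 0.0167, 0.00152, 0.0377 and 0.0186), where 4.76% of all genes were higher, 3.72% lower and 8.48% called. This total of 4 was 1 without batch 1 and 1 without batch 3, and its median was 0.17 against -0.02.

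repo-1 RNAi lowered 12 of the 22 genes in eat-2 and raised 1, where 21.4% of all genes tested fell, 16.2% rose and 37.5% were called. In clk-1 it again lowered 12 and raised 1, where 22.5% fell, 23.8% rose and 46.3% were called. The medians were -1.05 and -0.71, against -0.0295 and 0.00398 over all genes. The 2 comparisons share no library, and 10 genes fell in both, which is 83.3% of each set. Over all genes tested, 1560 fell in both, which is 59.3% of those that fell in eat-2 and 56.2% of those that fell in clk-1. The 10 cuticlin genes were cut-2, cut-3, cut-5, cut-6, cutl-2, cutl-13, cutl-20, cutl-26, cutl-28 and cutl-29. Of these, cut-5, cutl-13, cutl-28 and cutl-29 passed the filter only through the empty vector groups of these mutants, which favoured a fall under RNAi, and without them 6 of 8 in each mutant were shared. The cutl-20 call was lost in eat-2 without batch 1 or 2 (limma adjusted p = 0.0538 and 0.0573) and in clk-1 without batch 3 or 4 (adjusted p = 0.0681 and 0.0721), and that of cutl-2 in eat-2 without batch 2 (adjusted p = 0.0605). cutl-10 and cutl-23 (-1.75, limma adjusted p = 0.000221) were called lower in eat-2 alone, and cutl-12 (-1.10) and cutl-25 (-1.09) in clk-1 alone (adjusted p = 0.0358 and 0.00199). The cutl-12 call was lost without the filter (adjusted p = 0.0521) and without batch 2, 3 or 4 (adjusted p = 0.238, 0.122 and 0.0775). With the batch as a replicate block cutl-12 and cutl-18 were also called lower in eat-2, so that 14 fell. The gene raised was cutl-24 in eat-2 (0.55, adjusted p = 0.0248), which was not called without batch 2, 3 or 4, and cut-4 in clk-1. Without the filter on low values 18 of 35 fell in eat-2 and 13 of 35 in clk-1, cutl-17 and cutl-27 among those added in both. The share of all genes that fell in that fit was not counted.

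In wild type RNAi raised 6 of 22 genes and lowered 1, where 10.1% of all genes rose, 12.9% fell and 23% were called. Those raised were cutl-2 (1.12), cutl-9, cutl-16, cutl-20 (0.88), cutl-24 (1.28) and cutl-25 (1.05; limma adjusted p = 0.014 for cutl-2, 0.0117 for cutl-20, 8.61e-06 for cutl-24 and 0.00661 for cutl-25). Calls were lost for cutl-2 without batch 2 or 4 (adjusted p = 0.103 and 0.0504), for cutl-20 without batch 4 (adjusted p = 0.136) and for cutl-25 without batch 2 (adjusted p = 0.0747). The median was 0.55 against -0.02. cutl-2, for example, went from a mean of 9.76 ± 3.66 (SD, n = 4) to 21.4 ± 3.51 in wild type and from 100.6 ± 7.41 to 46.3 ± 13.7 in eat-2. In age-1 only cutl-16 rose and cutl-26 fell, where 10.6% rose, 10.2% fell and 20.9% were called, and these 2 calls dropped to 0 without batch 3 or without batch 4.

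In raga-1 RNAi raised 12 of 22 genes and lowered 0, where 38.2% of all genes rose, 33% fell and 71.1% were called. Here the median of all genes was itself raised, to 0.10 as deposited, and moved to -0.07 after quantile normalization. The cuticlin median was 0.93, and 0 tested genes were lower by edgeR or at an unadjusted p under 0.05. Each of the 12 rises, of 0.86 or more, exceeded that all-gene median, but after quantile normalization 3 were called higher, cut-2, cutl-10 and cutl-18, and 2 were called lower, cut-3 and cutl-9. Of the genes not yet described, cutl-29 rose by 2.02, from 2.41 ± 1.75 to 10.9 ± 2.18 (SD, n = 4), and cutl-23 by 1.72 (limma adjusted p = 4.1e-05 and 8e-05). cutl-15 and cutl-20 each rose by 1.29 (adjusted p = 9.18e-05 and 4.33e-05), and cutl-18 rose from a mean of 15.8 to 39.9 (adjusted p = 0.000204). Averaged over the 5 genotypes RNAi raised 6 genes and lowered 8, where 31.4% of all genes rose, 34.2% fell and 65.6% were called, and after quantile normalization the split was 3 and 8.

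**Figure D3:**
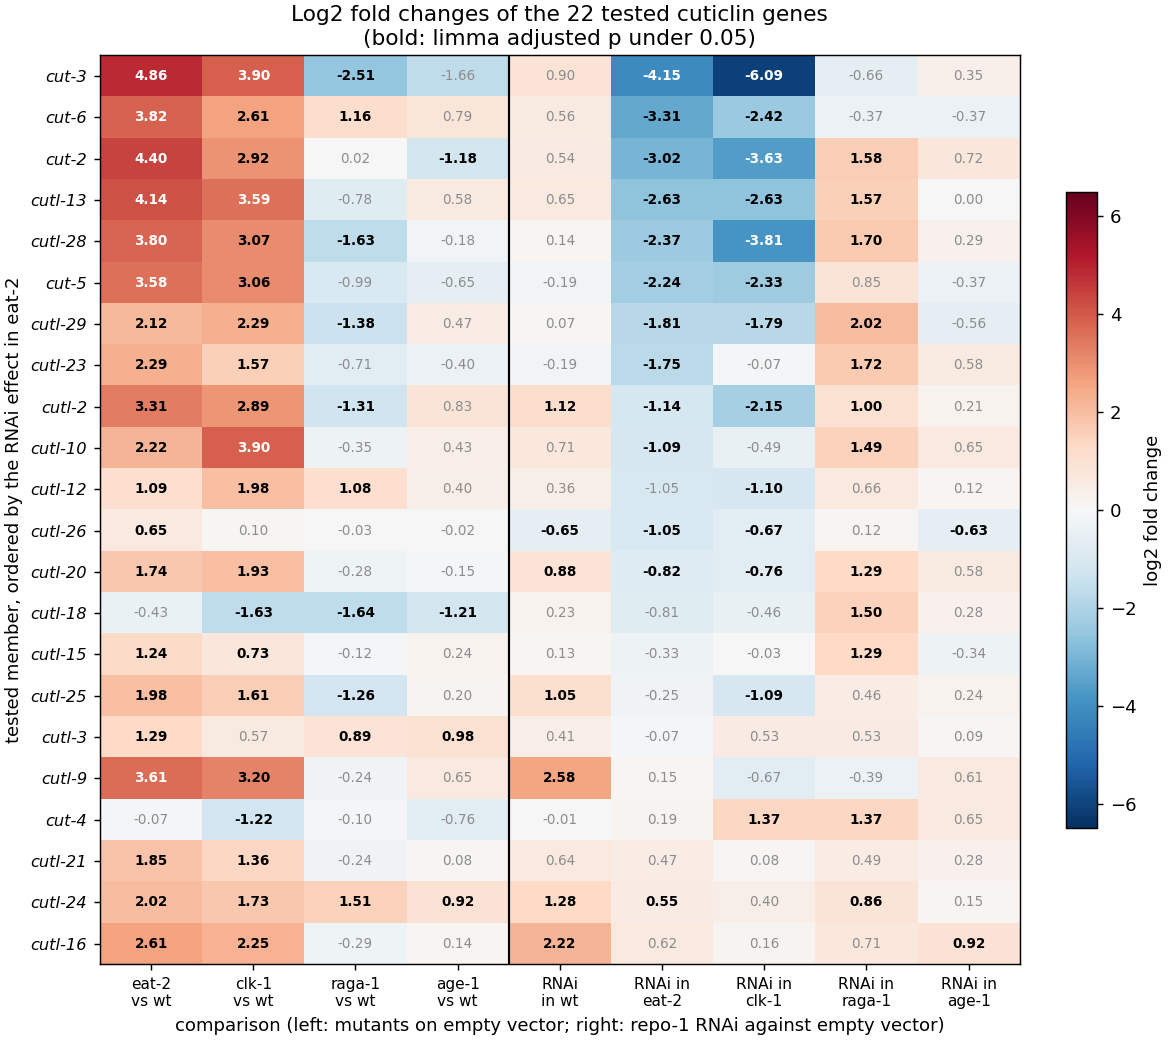
Each cell gives the log2 fold change of 1 of the 22 tested cuticlin genes in 1 comparison, coloured from blue (lower) to red (higher), with bold numbers for a limma adjusted p under 0.05. The rows are ordered by the RNAi change in eat-2. The eat-2 and clk-1 columns against wild type are red for most genes, and both RNAi columns of these mutants are blue in the upper rows.

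Whether RNAi acted differently in a mutant and in wild type was tested as an interaction, the RNAi change in the mutant minus that in wild type. In eat-2 13 of 22 genes had a lower RNAi change than wild type and 0 a higher one, where 6.73% of all genes were lower, 3.98% higher and 10.7% called. The largest were cut-3 (-5.04), cut-6 (-3.87), cut-2 (-3.56) and cutl-13 (-3.27), and the median was -1.65 against 0.00836. In clk-1 13 genes were lower and 0 higher, where 9.9% of all genes were lower, 13.7% higher and 23.6% called. cut-3 (-6.98), cut-2 (-4.17), cutl-28 (-3.95) and cutl-13 (-3.28) led, and the median was -1.75 against 0.03. Both sets include cutl-13, cutl-28 and cutl-29, which passed the filter only through eat-2 and clk-1 on empty vector, and this favoured a lower interaction. edgeR called 14 lower in each, with 0 higher in eat-2 and 1 higher in clk-1, and at an unadjusted p under 0.05 those higher were likewise 0 and 1. With the replicate block cutl-12 was also called lower in the clk-1 interaction. Without batch 2, and without batch 4, the eat-2 count fell to 8. The clk-1 count was 9 to 15 when a batch was left out.

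In raga-1 6 interactions were higher and 2 lower, where 28.4% of all genes were higher, 27.2% lower and 55.6% called. The all-gene median was 0.12 as deposited and -0.05 after quantile normalization, and with the latter 1 gene, cutl-23, was higher and 5 were lower. cutl-9 (-2.97) and cutl-16 (-1.51) were lower under both scalings, and the cutl-16 call was lost without batch 2 or 4 (limma adjusted p = 0.0682 and 0.118). In age-1 no interaction was called, 0 higher and 0 lower, by limma or by edgeR, where 0.00811% of all genes were called, and 3 were lower at an unadjusted p under 0.05. The 4 interactions share the wild type libraries.

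Batches 1 and 2 were set against batches 3 and 4, following these codes except for raga-1 on RNAi replicate 3. All 47 called contrasts between groups among the 10 featured genes had the same sign within batches 1 and 2 as within batches 3 and 4. These contrasts had been called from all the batches together, which favoured a shared sign, so this is not a separate test. Contrasts that were not called could differ in sign, such as cutl-28 in age-1 against wild type (1.18 and -1.53). In clk-1 under RNAi 10 of the 22 genes were higher in both libraries of batches 1 and 2 than in those of batches 3 and 4, and 3 were lower, against 24.4% and 25.9% of all genes tested. Other groups also split. On RNAi the counts were 2 and 3 in wild type, 0 and 8 in eat-2, 0 and 4 in raga-1 and 8 and 5 in age-1. On empty vector they were 2 and 0, 2 and 5, 1 and 4 and 8 and 3 in that order, and 6 and 2 in clk-1. Shares of all genes over the 10 groups were 12.1% to 31.7% and 11.7% to 25.9%.

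Other genes of the same structures were counted from lists of known roles, to be read against all genes tested. Of all genes, 27.2% were higher and 29.8% lower in eat-2, and 27.8% and 30.4% in clk-1. RNAi raised 16.2% and lowered 21.4% in eat-2, 23.8% and 22.5% in clk-1, and 38.2% and 33% in raga-1. Of 6 other ZP-domain genes, 5 were tested. All 5 were higher in eat-2 and in clk-1 than in wild type, 4 fell under RNAi in eat-2 and 5 in clk-1, and 4 rose in wild type and 4 in raga-1. noah-1 and noah-2, which belong to the temporary coat of embryos and molting larvae, rose by 2.87 and 3.07 in eat-2 and fell by 2.16 and 2.17 under RNAi in clk-1 (limma adjusted p = 1.52e-12, 1.59e-12, 2.01e-09 and 8.6e-09). fbn-1, a fibrillin-like matrix protein, rose by 1.19 under RNAi in wild type (adjusted p = 0.00187). The summed normalized count of the 6 genes was 819 to 1496 in wild type, 7508 to 8141 in eat-2 and 6056 to 6229 in clk-1 on empty vector, and 3205 to 4224 in eat-2 and 1075 to 2498 in clk-1 on RNAi.

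The furrow collagens, which pattern the rings of the cuticle, split into 2 sets. dpy-2, dpy-3, dpy-7 and dpy-10 were higher in eat-2 and clk-1 and lower under RNAi in both, while dpy-8 and dpy-9 were not called in these comparisons. In raga-1 RNAi raised 4 of the 6 and lowered 0, where 38.2% of all genes rose and 33% fell. There dpy-8 rose by 2.09 and dpy-9 by 1.77 (limma adjusted p = 0.00024 and 0.000242). Of 12 molting effectors, 10 were higher in eat-2, 11 were higher and 1 lower in clk-1, and 9 fell under RNAi in each. In raga-1 RNAi raised 11 of them and lowered 0. mlt-11, a secreted protease inhibitor, had a mean of 310 in wild type, 3780 in eat-2 and 2510 in clk-1 on empty vector. Of 12 molting regulators 9 were higher and 1 lower in eat-2, and 8 were higher and 1 lower in clk-1. nhr-23, a nuclear receptor that drives molting, had means of 1240 in wild type, 970 in eat-2 and 945 in clk-1, and nhr-25, a related receptor of the epidermis, had 56.5, 262 and 155.

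Adult cuticle genes formed another list. Of 6, 1 was lower in eat-2 and 3 were lower in clk-1, with the others not called, and RNAi raised 3 in raga-1, 3 in eat-2 and 2 in clk-1. col-19, an adult-specific collagen, had a mean of 21100 in wild type, 15500 in eat-2 and 13900 in clk-1 on empty vector. Means of the others were far lower and did not all follow it: rol-8 had 34.6, 95.1 and 27.9, bli-1 36.2, 57.1 and 40.8, bli-2 13.1, 22.5 and 15.5, col-7 27.8, 48.7 and 8.97, and bli-6 207, 201 and 55.3. Among 7 enzymes of dityrosine cross-linking, 1 was higher and 2 lower in eat-2 and 1 higher and 3 lower in clk-1. The member higher in both was skpo-2, a peroxidase, whose mean was 8.73 in wild type, 157 in eat-2 and 74.3 in clk-1 on empty vector. bli-3, the dual oxidase that supplies peroxide for the cross-links, had means of 465, 513 and 445. Under RNAi skpo-1 was called lower in every genotype, from -1.17 in age-1 to -3.08 in clk-1 (limma adjusted p = 4.83e-05 and 6.99e-15). In raga-1 RNAi raised 5 of the 7 enzymes and lowered 1, where 38.2% of all genes rose and 33% fell. Of 4 proprotein convertases, 3 were higher and 1 lower in eat-2 and 2 were higher in clk-1.

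**Figure D4:**
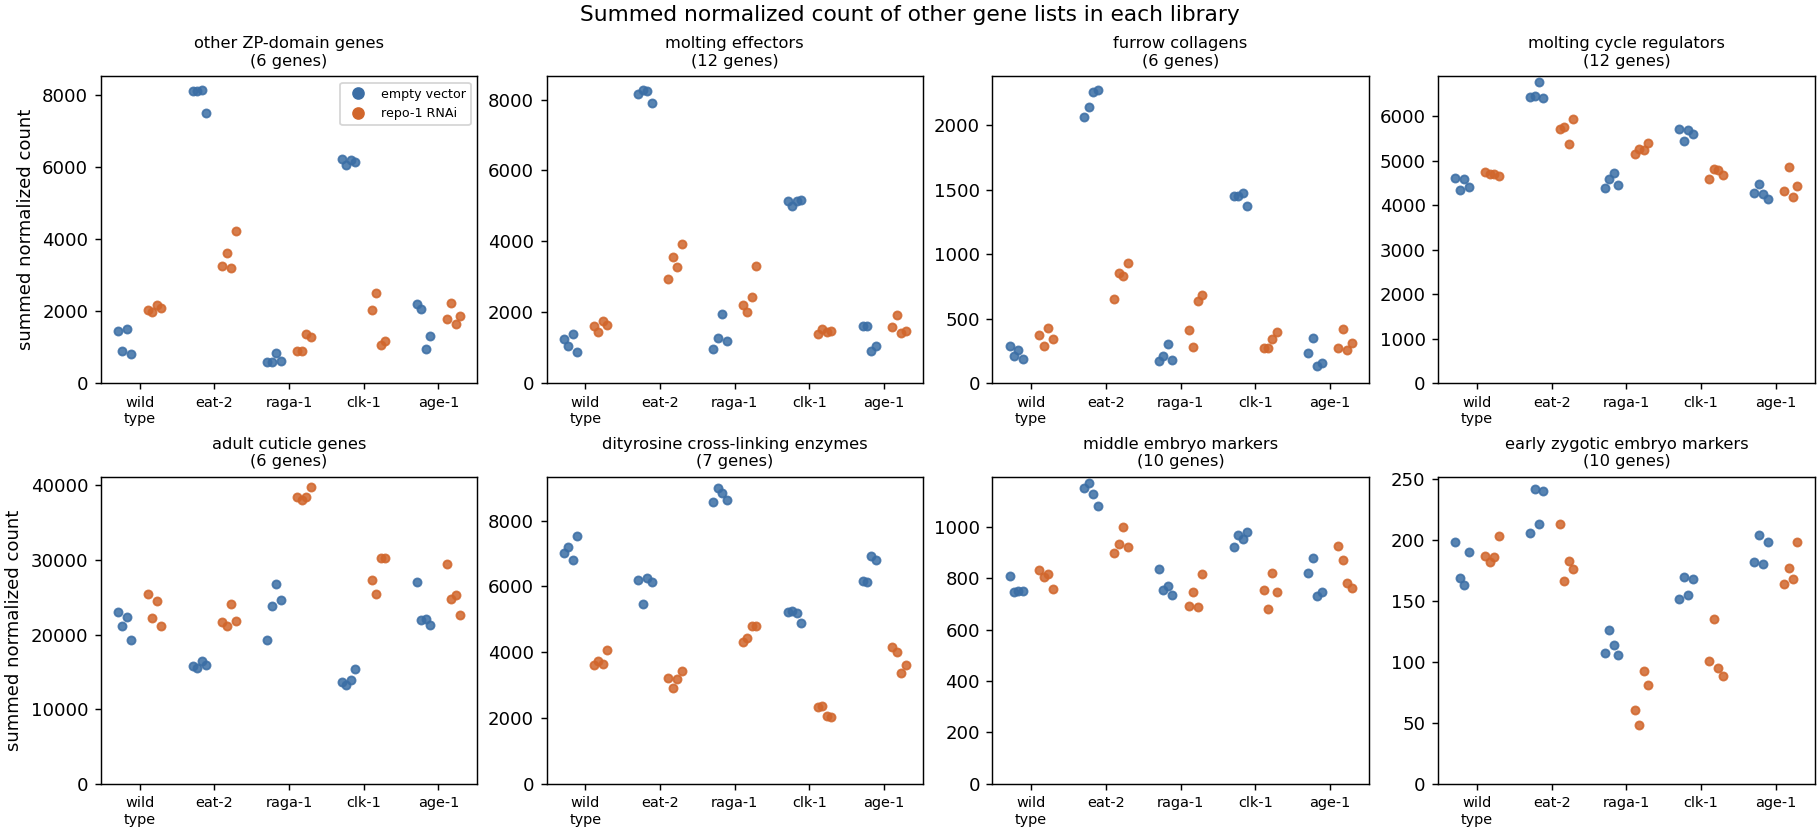
Each point is the summed normalized count of a gene list in 1 library, by genotype, with blue for empty vector and orange for repo-1 RNAi. Lists of other ZP-domain genes, molting effectors and furrow collagens are highest in eat-2 on empty vector, followed by clk-1, and the adult cuticle sum, which is nearly all col-19, is lowest in these 2 groups.

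Markers of other cells and stages also differed between the groups, and their part in the cuticlin results was not tested. The shares of all genes higher and lower were 27.2% and 29.8% in eat-2 and 27.8% and 30.4% in clk-1, and RNAi raised 10.1% of all genes in wild type and 10.6% in age-1. Of 10 middle embryo markers, 9 were higher in eat-2 and 7 higher and 1 lower in clk-1. Their summed count was 747 to 808 in wild type, 1081 to 1171 in eat-2 and 921 to 981 in clk-1 on empty vector, and RNAi lowered 5 in eat-2 and 7 in clk-1, where it raised 2. The largest part of that sum was tbx-9, which did not rise, with means of 492, 473 and 391 in these groups. The median log2 difference of the listed genes from wild type was 1.48 in eat-2 and 1.16 in clk-1. Early zygotic markers, of which 6 of 10 were tested, summed to 162.5 to 198 in wild type, 206.5 to 242 in eat-2 and 152 to 170 in clk-1, and med-1 was at 0 in every library. Of the 6, 1 was higher and 0 lower in eat-2, and 0 were higher and 2 lower in clk-1. Epidermis markers were higher in 7 of 10 and lower in 1 in each of these mutants. Of 8 listed seam marker names 7 were found among the deposited genes and 4 were tested, of which 3 were higher in eat-2, and 3 were higher and 1 lower in clk-1. Of 12 oocyte markers 1 was higher and 9 lower in eat-2, and 1 was higher and 7 lower in clk-1. RNAi raised 0 of them and lowered 12 in raga-1, 10 in clk-1, 5 in eat-2, 4 in wild type and 4 in age-1. Of all genes, RNAi lowered 33%, 22.5%, 21.4%, 12.9% and 10.2% in that order. Of 31 sperm genes of the msp family 27 were tested, of which none was called in eat-2 and 26 were lower in clk-1, and RNAi raised 25 in wild type, 24 in age-1, 23 in eat-2, and 27 on both other backgrounds.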

How the data were processed

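Whole-animal RNA of 40 samples was extracted with Qiagen miRNeasy and sequenced from Roche Kapa stranded mRNA libraries, per the labels' protocols. The authors deposited a normalized signal, in which reads per gene had been scaled by 1 size factor for each library. Per the submitters' processing notes, the build was WBcel235 and the tools, listed without roles, were Salmon 0.14.2, DESeq2, STAR, FastQC 0.11.8 and MultiQC. Dividing by the value of 1 read returned whole reads, 100% of values within 0.01. All 40 columns matched a sample.

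Genes averaging 10 or more (12327) entered a limma 3.58.1 fit (R 4.3.3) of log2(value + 1), with 1 mean for each of the 10 groups and the prior variance following mean level. For each of 14 comparisons p-values were adjusted over all these genes (Benjamini-Hochberg), and an adjusted p under 0.05 was called. Alternatives were a pseudocount of 5, no filter, quantile normalization, edgeR 4.0.16 on recovered reads, a replicate block, the compared groups alone and leaving out batches. The fits were tested on simulated data. Per length means used exon lengths of the Ensembl annotation of WBcel235. Promoter sequences were not analysed here.

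The labels give each library a batch equal to its replicate number, which pairs the libraries. Correlations of same-numbered deviations on empty vector and RNAi were -0.0627 to 0.256.

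The cuticlin genes and the gene lists were chosen with earlier results of these data known. Library values were given for the 8 tested genes with the largest called change between 2 groups and the 2 others with the highest mean. dpy-7, elt-1, elt-3, nhr-23 and nhr-25 of the epidermis list are also in another list.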

Additional observations from a re-analysis of the deposited data

Results flagged for a closer look

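Of 110 groups of 4 libraries examined, 9 had 1 library far from the others, and chance gives about 1 in 20 groups. cut-3 read 21.4 in the highest raga-1 library on empty vector and 31.8 in the highest age-1 library on RNAi. cut-2 read 104 in the lowest eat-2 library on RNAi and 86.4 in the highest age-1 library on RNAi. cut-6 read 50.7 in the highest raga-1 library on empty vector. cutl-28 read 17.4 in the highest age-1 library on RNAi and cutl-16 read 383 in the highest eat-2 library on RNAi. cutl-22, which was not tested, read 117 in 1 wild type library on empty vector and 9.07 in the highest clk-1 library on RNAi.

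The RNAi change differed from that of wild type for 34 pairs of gene and mutant by the limma interaction test, and the values are log2 differences. For eat-2 they were cut-2 (-3.56), cut-3 (-5.04), cut-6 (-3.87), cutl-2 (-2.27), cutl-9 (-2.43), cutl-10 (-1.79), cutl-13 (-3.27), cutl-16 (-1.60), cutl-20 (-1.70), cutl-23 (-1.56), cutl-25 (-1.30), cutl-28 (-2.51) and cutl-29 (-1.88). For raga-1 they were cut-4 (1.38), cutl-9 (-2.97), cutl-15 (1.16), cutl-16 (-1.51), cutl-18 (1.27), cutl-23 (1.91), cutl-26 (0.77) and cutl-29 (1.95). For clk-1 they were cut-2 (-4.17), cut-3 (-6.98), cut-6 (-2.98), cutl-2 (-3.27), cutl-9 (-3.24), cutl-10 (-1.19), cutl-13 (-3.28), cutl-16 (-2.05), cutl-20 (-1.64), cutl-24 (-0.88), cutl-25 (-2.13), cutl-28 (-3.95) and cutl-29 (-1.86). These tests share the wild type libraries, and cutl-13, cutl-28 and cutl-29 passed the filter only through eat-2 and clk-1 on empty vector.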

How the results depend on the processing

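Over all alternatives no single-gene change reversed its sign among called values: 1381 values kept their side of the threshold and 169 no longer passed. Of the counts of genes called, 129 stayed within 1.5 times and 17 did not, and the cause was not tested. After quantile normalization the count for RNAi in raga-1 went from 12 to 5. For RNAi in age-1 the count of 2 was 1 without the filter, 1 after quantile normalization, 1 with edgeR, 0 with the compared groups alone and 0 to 2 when a batch was left out. For raga-1 against wild type the count of 10 was 4 with the compared groups alone, 5 to 8 without a batch and 6 without raga-1 replicate 1 on empty vector, an alternative chosen after seeing the data. Without a batch the count was 9 to 13 for averaged RNAi (14 with all), 1 to 5 for age-1 against wild type (4 with all), 8 to 12 for the eat-2 interaction (13 with all) and 5 to 7 for the raga-1 interaction (8 with all). It was 19 to 20 for eat-2 and for clk-1 against wild type, 5 to 7 for RNAi in wild type and 10 to 13 for RNAi in eat-2. For RNAi in clk-1 and in raga-1 it was 10 to 14, and for the clk-1 interaction 9 to 15 (13 with all). With the replicate block RNAi in eat-2 gave 15 calls against 13, and beyond the 4 changes named (cut-3 in age-1, cutl-12 and cutl-18 for RNAi in eat-2, cutl-12 in the clk-1 interaction) the block changed no other call. Low counts limit the genes with a mean near 10, and groups where a gene held few reads, such as cut-3 in raga-1.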
